A study of Mus musculus with 10 samples.

Results

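A set of 9 genes of the transforming growth factor beta (TGF-beta) pathway was examined. They were chosen by name, with earlier results of these data known. Counts of members beside shares of all genes thus describe this set and do not test the pathway. The members are the ligand genes Tgfb1 and Tgfb3, the receptor genes Tgfbr1 and Tgfbr2, and the signal carriers Smad2 and Smad3. With them are the inhibitors Smad7 and Skil and the induced gene Tgfbi. These 9 genes are rows of a count table of 27179 genes, of which 15681 had enough counts to be tested, all 9 members among them. The table holds RNA sequencing of mouse mammary gland: virgin C57BL/6 females, all adult, gave 5 sorted kinds of cell, each in 2 biological replicates. There were macrophages of a ductal and of a stromal kind, and dendritic cells of 3 kinds: CD11b+, CD11b-CD103+ and CD11b-CD103-. Below, the CD11b- kinds are called CD103+ and CD103- dendritic cells. All mice were untreated as far as the labels state, no allele or transgene is named, and the labels do not say whether a replicate was 1 mouse or a pool, nor give sorting gates beyond these names. The p-values set differences between population means against the spread between these replicate samples, estimated jointly over the 5 populations.

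TGF-beta is made as a latent dimer that must be freed from its binding proteins before it can act. The active ligand binds the type II receptor (Tgfbr2), which recruits and phosphorylates the type I receptor (Tgfbr1, also called ALK5), and this in turn phosphorylates SMAD2 and SMAD3, which enter the nucleus with SMAD4 and bind DNA. SMAD7 blocks the receptor and SKIL (SnoN) holds SMADs inactive on DNA, and both genes are induced by the pathway they restrain. In the mammary gland TGF-beta is known to restrain ductal growth, and in macrophages it is known for its part in tissue residence, most of all in microglia.

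Libraries held 5636092 to 23093742 counts, and 3 counts corresponded to 0.119 to 0.683 CPM. CPM is the usual depth-scaled count, here after trimmed-mean (TMM) scaling of library sizes. The stromal replicates lay furthest apart, with a root mean square log2 difference of 1.15 over the tested genes against 0.736 to 0.913 in the other populations. The 13 mitochondrial protein genes took 14.7% and 15.4% of stromal counts and 0.560% and 0.780% of ductal counts, and their part in the results below was not tested. All 9 macrophage markers looked at (such as Adgre1, Csf1r, Mertk and C1qa) had counts in both macrophage populations, with a summed level of 18728 to 20496 CPM in ductal and 6604 to 9098 CPM in stromal libraries. The same list summed to 1609.6 to 1638 CPM in CD11b+ dendritic cells and to 218 to 329.6 CPM in the other dendritic cells. The dendritic cell list (Flt3, Zbtb46, Dpp4, Ccr7 and Kmo) summed to 1097 to 2301 CPM in CD103+ and CD103- cells, 192 to 321 CPM in CD11b+ cells, 190.3 to 266 CPM in ductal libraries and 96.6 to 102.8 CPM in stromal ones.

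By a single test for any difference among the 5 populations (edgeR's quasi-likelihood test, Benjamini-Hochberg adjusted over all tested genes), 7 of the 9 members passed an adjusted p of 0.05, where 50.4% of all tested genes passed. Smad2 and Smad7 did not. The highest mean lay in ductal macrophages for 8 of 9 members, as it did for 21.1% of all tested genes. In these 8 genes both ductal libraries also lay above the other 8 libraries, which held for 12.2% of tested genes. Smad2 was the exception. The margin was small in some: the lower ductal library was 1.26 (Skil), 1.33 (Smad3), 1.35 (Tgfb1) and 1.39 (Smad7) times the highest other library. Both statements rest on TMM scaling. With total counts, ductal and CD103+ libraries overlapped for Smad3, Smad7 and Skil, and the mean of Skil was higher in CD103+ cells. Ductal and CD103- libraries then overlapped too for Smad3 and Skil.

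**Figure D1:**
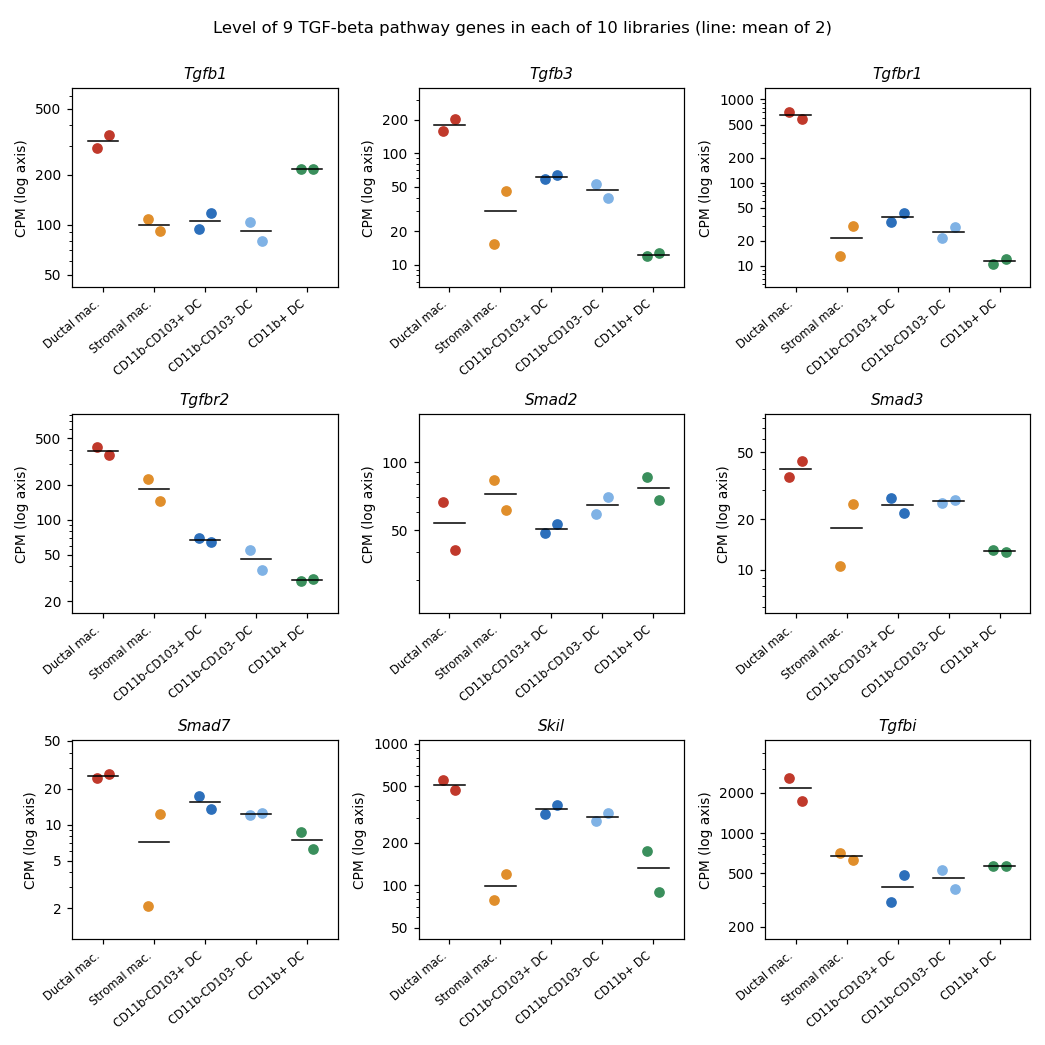
CPM on a log axis for each member in each of the 10 libraries, with 2 points per population and a line at their mean (mac., macrophages; DC, dendritic cells). The ductal points lie above all others in every panel except Smad2, and Tgfbr1 shows the widest gap, at 581 CPM or more in ductal libraries and 43.6 CPM or less elsewhere.

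Tgfb1, on chromosome 7 (GRCm38, 25687002 to 25705077), encodes the most widely expressed TGF-beta isoform. Its level was 292 and 349.7 CPM in ductal macrophages, 215 and 216 CPM in CD11b+ dendritic cells, 108 and 91.6 CPM in stromal macrophages, 94.0 and 117 CPM in CD103+ cells and 103.1 and 79.6 CPM in CD103- cells. Ductal macrophages and CD11b+ dendritic cells were thus the high pair, and the other 3 populations overlapped one another. The log2 fold change of ductal over stromal macrophages was 1.68 ± 0.24 (SE; adjusted p = 0.00047), and those over CD103+ and CD103- cells were 1.60 ± 0.24 (adjusted p = 0.000784) and 1.81 ± 0.24 (adjusted p = 0.000326). The step from ductal macrophages to CD11b+ cells, 0.57 ± 0.24, did not pass (adjusted p = 0.109), although the libraries did not overlap. CD11b+ cells exceeded CD103- cells by 1.24 log2 units and stromal macrophages by 1.11 log2 units (adjusted p = 0.00514 and 0.00634). The excess of CD11b+ cells over CD103+ cells, the next population down, passed with an adjusted p of 0.012 but not without CD103+ replicate 1 (0.103), CD11b+ replicate 1 (0.0658) or CD11b+ replicate 2 (0.0625), nor with scaling by total counts (0.051). In sorted bulk samples, fewer cells of a type that express a gene and less RNA per cell cannot be told apart.

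Tgfb3 (chromosome 12, 86056743 to 86079041), a second TGF-beta isoform that signals through the same receptors, had another order. It reached 158 and 201 CPM in ductal macrophages, 59.2 and 63.9 CPM in CD103+ cells, 53.0 and 39.7 CPM in CD103- cells, 15.5 and 45.7 CPM in stromal macrophages and 11.9 and 12.7 CPM in CD11b+ cells. CD11b+ cells, high for Tgfb1, were lowest for Tgfb3, and the stromal replicates reached from near the CD11b+ level into the CD103- range. Ductal over CD11b+ cells gave a log2 fold change of 3.87 ± 0.45 (adjusted p = 0.000146), and ductal over stromal macrophages 2.55 ± 0.42 (adjusted p = 0.00107). CD103+ over CD11b+ cells gave 2.32 ± 0.43 (adjusted p = 0.00371). Stromal macrophages over CD103+ cells gave -1.01 ± 0.40, which did not pass (adjusted p = 0.0748). That difference did pass with DESeq2 (0.0386), total counts (0.0355) and no filter (0.0219). The remaining passes each depended on the libraries used. Ductal over CD103+ cells, 1.54 ± 0.40 (adjusted p = 0.0182), did not pass when any one of the 4 libraries compared was left out (adjusted p = 0.057 and 0.0949 for ductal replicates 1 and 2, and 0.111 and 0.0816 for CD103+ replicates 1 and 2) or with total counts, where the difference fell to 0.93 (adjusted p = 0.146). Ductal over CD103- cells, 1.95 ± 0.41 (adjusted p = 0.00545), missed narrowly without CD103- replicate 2 (0.0544) and with total counts (0.0501). CD103- over CD11b+ cells, 1.91 ± 0.42 (adjusted p = 0.0104), was lost without CD103- replicate 1 (0.0565), CD11b+ replicate 1 (0.0948) or CD11b+ replicate 2 (0.0866). Stromal macrophages over CD11b+ cells, 1.31 ± 0.42 (adjusted p = 0.04), held in 6 of 15 alternatives and fell to 0.33 without stromal replicate 2 (adjusted p = 0.471); the adjusted p was 0.198 and 0.157 without CD11b+ replicate 1 and 2, 0.0801 with total counts, and 0.0572 to 0.0591 without ductal replicate 1 or 2 or CD103+ replicate 1 or 2.

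The ratio of Tgfb3 to Tgfb1 within a library, per gene length (RPKM, the CPM divided by gene length in kilobases), does not depend on library scaling. It was 0.336 and 0.355 in ductal macrophages, 0.389 and 0.337 in CD103+ cells and 0.318 and 0.309 in CD103- cells, with CD103+ and ductal libraries overlapping and CD103- cells just below. In CD11b+ cells it was 0.0342 and 0.0364, below every other library. The stromal libraries stood apart from each other at 0.0886 and 0.309. The remaining isoform, Tgfb2, was scarce, averaging 0.89 CPM in ductal macrophages, 6.99 CPM in the stromal kind and 2.07 to 4.38 CPM in dendritic cells.

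Tgfbr1 (chromosome 4, 47353222 to 47414926), the kinase that phosphorylates SMAD2 and SMAD3, showed the widest range of the members, 57.2-fold between the highest and the lowest population mean. It stood at 716 and 581 CPM in ductal macrophages, 33.1 and 43.6 CPM in CD103+ cells, 21.7 and 29.5 CPM in CD103- cells, 13.1 and 30.3 CPM in stromal macrophages and 10.5 and 12.2 CPM in CD11b+ cells. The lower ductal library was 13.3 times the highest library of any other population. Ductal macrophages exceeded CD11b+ cells by 5.85 ± 0.44 log2 units (adjusted p = 9.23e-06), stromal macrophages by 4.90 ± 0.41 (adjusted p = 1.62e-05), CD103- cells by 4.66 ± 0.41 (adjusted p = 1.81e-05) and CD103+ cells by 4.08 ± 0.40 (adjusted p = 4.31e-05). Each of these held in all 15 alternatives. Among the other 4 populations no neighbours in the order passed, though stromal macrophages over CD11b+ cells did without the filter (0.95, adjusted p = 0.0422). CD103- over CD11b+ cells, 1.19 ± 0.38 (adjusted p = 0.0513), missed narrowly and passed in 6 of 15 alternatives: with DESeq2 (0.0139), total counts (0.0236), no filter (0.0127), replicate number in the model (0.0487) and without stromal replicate 1 (0.00845) or 2 (0.0109). Across the ends of that order CD103+ cells exceeded CD11b+ cells by 1.77 ± 0.38 (adjusted p = 0.00793), a call lost without CD11b+ replicate 1 (0.0862) or replicate 2 (0.0591).

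Tgfbr2 (chromosome 9, 116087695 to 116175363), the ligand-binding receptor, was graded rather than split. It measured 423 and 362 CPM in ductal macrophages, 223 and 146 CPM in stromal macrophages, 70.2 and 64.5 CPM in CD103+ cells, 54.7 and 37.0 CPM in CD103- cells and 30.1 and 31.4 CPM in CD11b+ cells. No library of one population overlapped another population's. Stromal macrophages, low for Tgfbr1, were second for Tgfbr2, above CD103+ cells by 1.46 ± 0.28 log2 units (adjusted p = 0.00232), CD103- cells by 2.01 ± 0.28 (adjusted p = 0.000322) and CD11b+ cells by 2.59 ± 0.29 (adjusted p = 0.000132). Ductal macrophages exceeded CD11b+ cells by 3.68 ± 0.30 (adjusted p = 1.39e-05), CD103- cells by 3.10 ± 0.29 (adjusted p = 2.83e-05) and CD103+ cells by 2.54 ± 0.29 (adjusted p = 0.000104). The ductal over stromal difference, 1.09 ± 0.27 (adjusted p = 0.012), did not pass without ductal replicate 1 (0.084) or stromal replicate 2 (0.0805). CD103+ over CD11b+ cells, 1.13 ± 0.28 (adjusted p = 0.0157), did not pass without CD103+ replicate 1 (0.0802), CD11b+ replicate 1 (0.111) or CD11b+ replicate 2 (0.087). The differences of CD103+ from CD103- cells (0.56 ± 0.27) and of CD103- from CD11b+ cells (0.58 ± 0.28) did not pass. With total counts the latter was 0.96 and passed (adjusted p = 0.0236).

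Per gene length, the type I to type II receptor ratio Tgfbr1/Tgfbr2 was 1.43 and 1.36 in ductal macrophages, the only libraries above 1. It was 0.399 and 0.570 in CD103+ cells, 0.335 and 0.674 in CD103- cells, 0.294 and 0.328 in CD11b+ cells and 0.0495 and 0.175 in stromal macrophages. Both stromal libraries thus lay below, and both ductal libraries above, all 6 dendritic cell libraries.

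**Figure D2:**
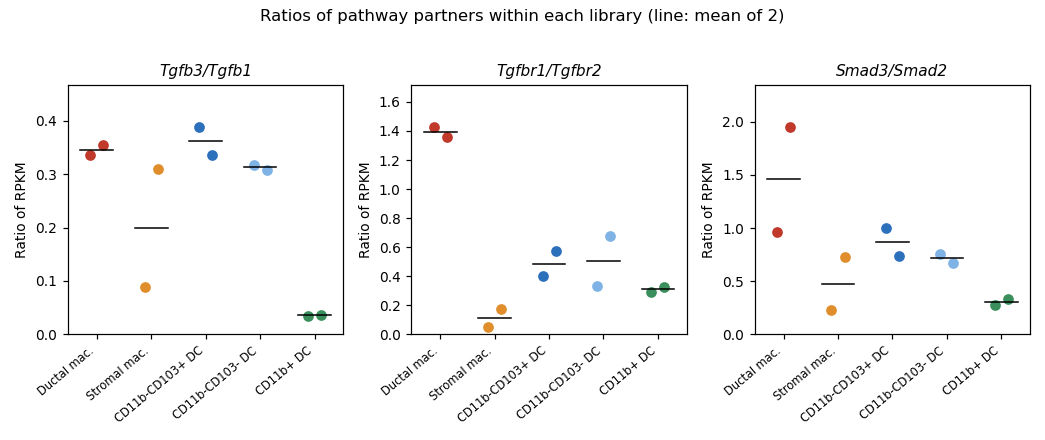
Ratios of RPKM within each library for Tgfb3/Tgfb1, Tgfbr1/Tgfbr2 and Smad3/Smad2, with 2 points per population and a line at their mean. The Tgfbr1/Tgfbr2 panel separates ductal libraries (1.36 and 1.43) from all others (0.674 or less), and the Tgfb3/Tgfb1 panel sets CD11b+ dendritic cells apart below 0.04.

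Since both receptors and Tgfbi were among the members highest in ductal macrophages, the 250 bases before their start sites are printed to show what short motifs lie there. The sequences are from RefSeq on GRCm38.p6, in the direction of the gene. The search covered both strands for the SMAD box CAGAC, the SMAD palindrome GTCTAGAC, the AP-1 site TGANTCA, the PU.1 core GAGGAA and the GC box GGGCGG. Capitals mark the SMAD box, which reads GTCTG where it lies on the opposite strand.
Tgfbr1, chr4:47352972-47353221, plus strand: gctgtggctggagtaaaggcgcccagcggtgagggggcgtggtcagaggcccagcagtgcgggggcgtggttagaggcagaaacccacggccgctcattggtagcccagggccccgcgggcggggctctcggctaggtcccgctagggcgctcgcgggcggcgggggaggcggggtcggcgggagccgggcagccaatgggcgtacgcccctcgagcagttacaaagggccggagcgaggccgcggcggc
Tgfbr2, chr9:116175364-116175613, minus strand: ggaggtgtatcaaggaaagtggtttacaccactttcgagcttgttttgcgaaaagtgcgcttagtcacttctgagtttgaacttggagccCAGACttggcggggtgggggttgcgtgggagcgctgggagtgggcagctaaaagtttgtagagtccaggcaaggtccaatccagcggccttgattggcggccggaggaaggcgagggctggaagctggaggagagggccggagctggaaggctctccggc
Tgfbi, chr13:56609336-56609585, plus strand: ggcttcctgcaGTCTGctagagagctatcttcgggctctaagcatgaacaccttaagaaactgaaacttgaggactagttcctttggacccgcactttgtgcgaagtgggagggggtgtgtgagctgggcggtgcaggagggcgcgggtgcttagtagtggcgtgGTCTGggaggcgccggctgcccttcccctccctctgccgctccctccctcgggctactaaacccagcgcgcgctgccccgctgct

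Counting back from the start site, the Tgfbr1 window printed above held GC boxes at -133 and -95 and no SMAD box. RefSeq gives Tgfbr1 another start within the gene, whose window (chr4:47385966-47386215, plus strand) held a SMAD box at -203, a PU.1 core at -95 and no GC box. The Tgfbr2 window held 1 SMAD box at -160, 1 PU.1 core at -57 and no GC box. The Tgfbi window held SMAD boxes at -239 and -85, both on the opposite strand, and a GC box at -124. The SMAD box, GC box and PU.1 core are common: of 32817 promoter windows of that length, 42.2%, 32.7% and 23.3% held them. Fewer windows held an AP-1 site (6.75%) or the SMAD palindrome (0.168%). Promoter entries were matched for Tgfb1 and Smad3 too, with 5 and 2 GC boxes and no SMAD box, and no window of these 5 genes at its main start held the palindrome or an AP-1 site. A match is a description of the letters and was not tested against the expression values.

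Smad2 (chromosome 18, 76241090 to 76311748), one of the paired receptor-activated SMADs, was the most even member. Its lowest and highest libraries were 40.7 CPM (ductal replicate 2) and 85.5 CPM (CD11b+ replicate 1), and the population means spanned 1.51-fold. It stood at 66.7 and 40.7 CPM in ductal macrophages, 82.9 and 61.4 CPM in stromal macrophages, 48.5 and 53.0 CPM in CD103+ cells, 58.9 and 69.7 CPM in CD103- cells and 85.5 and 68.0 CPM in CD11b+ cells. The test for any difference did not pass (adjusted p = 0.264), nor did any of the 10 pairs. With total counts in place of TMM scaling, ductal macrophages were lower than CD103- cells by 0.89 log2 units (adjusted p = 0.0204) and lower than CD11b+ cells by 0.76 log2 units (adjusted p = 0.048).

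Smad3 (chromosome 9, 63646766 to 63757994), which binds the SMAD box directly, was 35.8 and 44.3 CPM in ductal macrophages, 24.9 and 26.2 CPM in CD103- cells, 26.9 and 21.7 CPM in CD103+ cells, 10.5 and 24.8 CPM in stromal macrophages and 13.1 and 12.7 CPM in CD11b+ cells. The ductal libraries were highest and the CD11b+ libraries among the lowest, while the stromal replicates reached from below CD11b+ cells into the CD103+ range. It differed among populations with an adjusted p of 0.0263, which rose past 0.05 with total counts (0.0551) and without ductal replicate 1 (0.0665), ductal replicate 2 (0.118), CD11b+ replicate 1 (0.0921) or CD11b+ replicate 2 (0.105). Ductal macrophages exceeded CD11b+ cells by 1.63 ± 0.38 log2 units (adjusted p = 0.00968), lost without ductal replicate 2 (0.0622), CD11b+ replicate 1 (0.0719) or CD11b+ replicate 2 (0.0798). Ductal over stromal macrophages, 1.18 ± 0.37 (adjusted p = 0.031), was lost with total counts (0.106) and without ductal replicate 1 (0.0778), ductal replicate 2 (0.15), stromal replicate 1 (0.115), CD11b+ replicate 1 (0.0508) or CD11b+ replicate 2 (0.0576). Per gene length Smad3/Smad2 was 0.962 and 1.95 in ductal macrophages, 0.997 and 0.734 in CD103+ cells, 0.76 and 0.675 in CD103- cells, 0.227 and 0.724 in stromal macrophages and 0.274 and 0.336 in CD11b+ cells, so the ductal and CD103+ libraries overlapped.

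Smad7 (chromosome 18, 75367365 to 75395935), the inhibitory SMAD, had the lowest mean level per gene length of the members in each population. It measured 24.4 and 26.7 CPM in ductal macrophages, 17.5 and 13.5 CPM in CD103+ cells, 12.1 and 12.5 CPM in CD103- cells, 8.73 and 6.28 CPM in CD11b+ cells and 2.1 and 12.3 CPM in stromal macrophages. The stromal values, from 38 counts in replicate 1, spanned the values of CD11b+ cells. The test for any difference did not pass (adjusted p = 0.0893), but it did so with DESeq2 (0.0299), without the filter on low counts (0.0107) and without stromal replicate 1 (0.00839) or stromal replicate 2 (0.000301). Ductal over stromal macrophages, 1.83 ± 0.61 log2 units (adjusted p = 0.0424), held in only 4 of 15 alternatives. It did not pass with total counts (0.0991) or with replicate number in the model (0.0511), nor without ductal replicate 1 (0.125), ductal replicate 2 (0.133) or stromal replicate 1 (1.09 log2 units, adjusted p = 0.0556), and leaving out any one dendritic cell library gave an adjusted p of 0.0536 to 0.0701. Ductal over CD11b+ cells, 1.75 ± 0.62, had an adjusted p of 0.0642, and passed with DESeq2 (0.024), without the filter (0.012) and without stromal replicate 1 (0.00209) or stromal replicate 2 (0.00176).

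Skil (chromosome 3, 31095058 to 31122923), which encodes the nuclear SMAD repressor SnoN, had a different division. It reached 558 and 468 CPM in ductal macrophages, 317 and 372 CPM in CD103+ cells, 283 and 322 CPM in CD103- cells, 175 and 89.6 CPM in CD11b+ cells and 78.9 and 120.4 CPM in stromal macrophages. Ductal macrophages and the CD103+ and CD103- cells formed the upper part of the range, and stromal macrophages and CD11b+ cells, which overlapped, the lower part. Ductal macrophages exceeded stromal macrophages by 2.36 ± 0.34 log2 units (adjusted p = 0.000508) and CD11b+ cells by 1.95 ± 0.34 (adjusted p = 0.00197), whereas their differences from CD103+ cells (0.57 ± 0.33, adjusted p = 0.23) and CD103- cells (0.76 ± 0.33, adjusted p = 0.124) did not pass. Stromal macrophages lay below CD103+ cells by 1.79 log2 units (adjusted p = 0.00229) and below CD103- cells by 1.60 log2 units (adjusted p = 0.00408). CD103+ over CD11b+ cells, 1.38 ± 0.33 (adjusted p = 0.0148), was lost without CD103+ replicate 2 (0.0677) or CD11b+ replicate 2 (0.97 log2 units, adjusted p = 0.129). CD103- over CD11b+ cells, 1.19 ± 0.33 (adjusted p = 0.0312), was lost with replicate number in the model (0.051) and without CD103- replicate 1 (0.0744), CD103- replicate 2 (0.113) or CD11b+ replicate 2 (0.77 log2 units, adjusted p = 0.244).

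Tgfbi (chromosome 13, 56609586 to 56639359) encodes a secreted matrix protein named for its induction by TGF-beta. It was 2608 and 1734 CPM in ductal macrophages, 714 and 625 CPM in stromal macrophages, 565 and 568 CPM in CD11b+ cells, 533 and 384 CPM in CD103- cells and 305 and 482 CPM in CD103+ cells. The lower ductal library was 2.43 times the highest library elsewhere, and no pair among the other 4 populations passed. Ductal macrophages exceeded CD103+ cells by 2.46 ± 0.33 log2 units (adjusted p = 0.000377), CD103- cells by 2.24 ± 0.33 (adjusted p = 0.000597), CD11b+ cells by 1.94 ± 0.33 (adjusted p = 0.00161) and stromal macrophages by 1.70 ± 0.32 (adjusted p = 0.00272), and each held in all 15 alternatives. Fibroblasts also make Tgfbi, and the 6 fibroblast markers (Col1a1, Col1a2, Col3a1, Pdgfra, Dpt and Lum) summed to 357 and 1082 CPM in ductal replicates 1 and 2, 801 to 1254 CPM in stromal libraries, 718 to 755 CPM in CD103+, 302 to 492 CPM in CD103- and 216 to 448 CPM in CD11b+ libraries. The part of fibroblast RNA in the Tgfbi values was not tested.

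**Figure D3:**
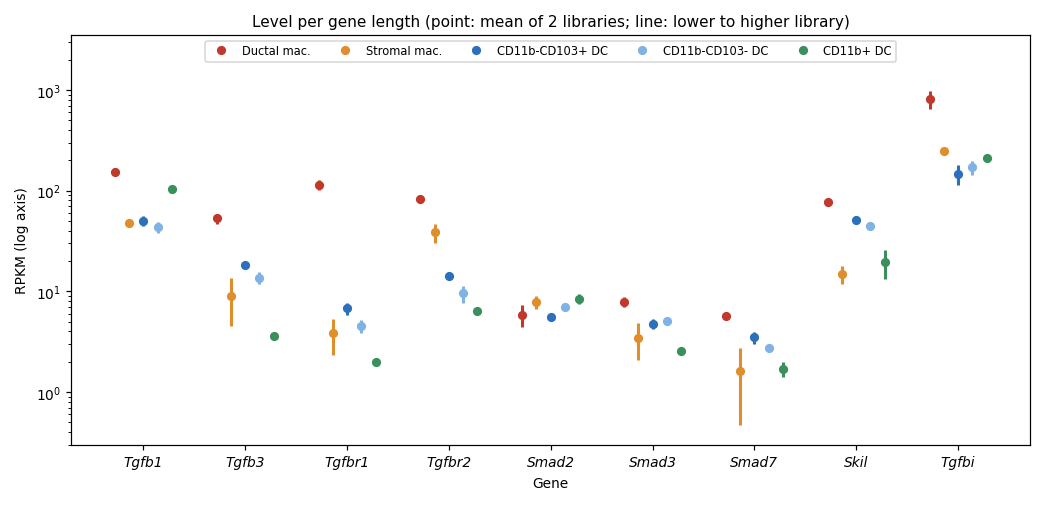
Level per gene length (RPKM, log axis) of the 9 members, with a point at the mean of 2 libraries and a line from the lower to the higher library. In ductal macrophages the order runs from Tgfbi (811) through Tgfb1 (153), Tgfbr1 (114), Tgfbr2 (82.0), Skil (76.4) and Tgfb3 (53.0) to Smad3 (7.86), Smad2 (5.87) and Smad7 (5.75).

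Across genes, levels were compared per length. Tgfbi had the highest RPKM of the members in every population, from 147 ± 46.8 (SD, n = 2) in CD103+ cells to 811 ± 231 in ductal macrophages. In ductal macrophages the receptor genes were near the ligand Tgfb1, with Tgfb1 at 153 ± 19.6, Tgfbr1 at 114 ± 16.8 and Tgfbr2 at 82.0 ± 8.98 RPKM. In CD11b+ cells Tgfb1 stood at 103.1 ± 0.317 RPKM while Tgfbr1 was at 2.00 ± 0.219 and Tgfbr2 at 6.42 ± 0.201 RPKM. Smad2, Smad3 and Smad7 were below 10 RPKM in all libraries, with Smad2 between 4.45 and 9.36 RPKM. Reads of long non-coding genes that overlap Tgfbr1, Tgfbr2, Smad3 and Smad7 (1 each, not counted in the table) could not be told apart from theirs if counting ignored strand, which the labels do not state.

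The 4 comparisons with ductal macrophages share the ductal libraries, so they are given side by side. Against stromal macrophages 8 of 9 members were higher and none lower, where 30.6% of tested genes passed in either direction (16.3% higher, 14.3% lower). The members' median log2 fold change was 1.70 against -0.10 over all tested genes. Without ductal replicate 1 the count was 5 of 9 and the share of all genes 15.3%. The summed levels of several marker lists of other cells did not overlap between these libraries either. The adipocyte list (Adipoq, Plin1, Cfd, Lep, Cidec and Car3) summed to 427 to 457 CPM in stromal libraries, with counts for all 6 markers, and to 5.01 to 14.6 CPM in ductal ones, with counts for 4. The luminal epithelial list of 6 genes (such as Krt8, Krt18 and Epcam) summed to 801 to 1738 CPM in stromal and 211 to 370 CPM in ductal libraries, and the platelet list of 6 to 818 to 953 CPM and 17.1 to 35.2 CPM. Pf4 alone made up 872.5 CPM of the stromal platelet sum, where Gp9 and Gp5 were at 0. The list of 7 genes of cross-presenting dendritic cells was higher on the ductal side, at 943 to 1000.5 CPM against 143 to 175 CPM, and there Cadm1 averaged 680.4 CPM and Clec9a 9.61 CPM. The part of these cell types in the members' differences was not tested.

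Against CD103+ cells 5 of 9 members were higher (23.9% of genes passed, 12.5% higher and 11.4% lower; medians 1.54 and -0.09), and against CD103- cells 5 of 9 were higher (22.9% of genes passed, 12.2% higher and 10.7% lower; medians 1.81 and -0.11). Against CD11b+ cells 6 of 9 were higher (23.3% of genes passed, 11.9% higher and 11.4% lower; medians 1.94 and -0.05). These shares also depended on single libraries: without ductal replicate 1 they were 10.3%, 11.5% and 10.5% of all genes, with 4, 5 and 6 members. Against CD103+ cells the share was 15.2% without ductal replicate 2 and 13.2% and 15% without CD103+ replicates 1 and 2, with 4 members each. Against CD11b+ cells it was 14.4% without ductal replicate 2 and 12.1% and 11.6% without CD11b+ replicates 1 and 2, with 5 members each. Tgfb3, Tgfbr1, Tgfbr2 and Tgfbi were higher in all 4, as were 4.37% of tested genes.

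Total-count scaling moved the median of all genes and with it the balance of calls in every comparison but CD103+ against CD103- cells. There the median moved by 0.0065 log2 units and the share of calls that were higher stayed at 100%. The median shifted by -0.62 log2 units for ductal against CD103+ cells, -0.61 against CD103- cells and -0.23 against CD11b+ cells, and the share of calls that were higher went from 52.4% to 20.0%, from 53.3% to 21.7% and from 51.0% to 36.0%. It shifted by -0.12 for ductal against stromal macrophages and by -0.11 for stromal macrophages against CD11b+ cells, and the shares of calls that were higher went from 53.2% to 47.1% and from 44.5% to 36.8%. Relative to these shifts the ductal differences of Tgfbr1 (at least 4.08 with TMM), Tgfbr2 against dendritic cells and Tgfbi remained on the same side. For Skil, the ductal against CD103+ difference was 0.57 with TMM and -0.04 with total counts.

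**Figure D4:**
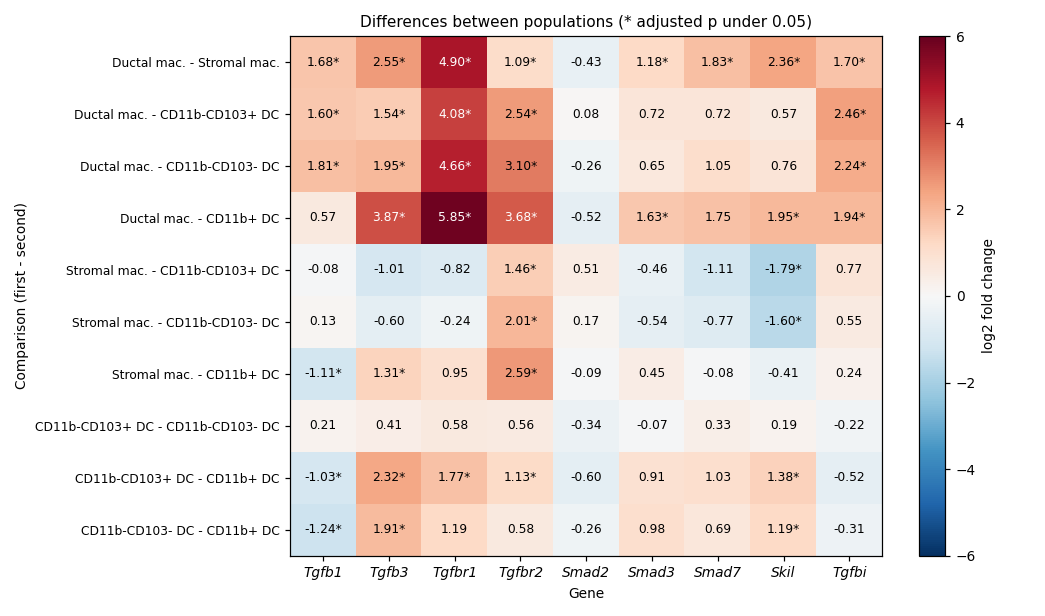
Log2 fold change (first population minus second) of each member in each of the 10 pairs, with an asterisk where the adjusted p was under 0.05. The upper 4 rows, ductal macrophages against each other population, hold positive values except in the Smad2 column, and the row of CD103+ against CD103- cells holds none past the threshold.

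Between stromal macrophages and the dendritic cells fewer members passed. Against CD103+ cells Tgfbr2 was higher and Skil lower (2 of 9; 33.6% of genes passed, 16.0% higher and 17.5% lower), and against CD103- cells the same was true (2 of 9; 35.3% of genes passed, 17.0% higher and 18.4% lower). With total counts the median of all genes moved by -0.50 in both. The shares of calls that were higher went from 47.8% to 23.8% and from 48.0% to 24.8%. The count against CD103+ cells became 4, where 36.2% of all genes passed. Without stromal replicate 2 the counts were 6 of 9 in both, where 32.6% and 32.5% of all genes passed: the replicate left, stromal replicate 1, held 15.5 CPM of Tgfb3, 13.1 of Tgfbr1, 10.5 of Smad3 and 2.1 of Smad7. Against CD11b+ cells Tgfb3 and Tgfbr2 were higher and Tgfb1 lower (3 of 9, where 26.1% of genes passed, 11.6% higher and 14.5% lower). This count was 2 with total counts (26% of all genes) and with replicate number in the model (23.1%). It was 4 without the filter (21%), and leaving out a library changed it too.

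Within the dendritic cells, CD103+ and CD103- cells differed in no member, and in 5 genes in all, named here after their values were seen: Mgl2, Itgae, Ms4a6d, Clec4n and Mmp12 (0.0319% of tested genes, edgeR's quasi-likelihood test). At an unadjusted p under 0.05 there were 1000 genes and 0 members, and DESeq2 called 149 genes and 0 members. With 1 library left out, edgeR called 2 to 18 genes and 0 members, with 18 without CD103+ replicate 1 or CD103- replicate 1, 15 and 16 without stromal replicate 1 and 2, and 2 without either CD11b+ library or CD103- replicate 2. The member differences ranged from -0.34 ± 0.28 log2 units for Smad2 to 0.58 ± 0.36 for Tgfbr1. Against CD11b+ cells, CD103+ cells were higher in Tgfb3, Tgfbr1, Tgfbr2 and Skil and lower in Tgfb1 (5 of 9; 20.8% of genes passed, 9.54% higher and 11.2% lower). The count was 3 without CD103+ replicate 1, 2 without CD11b+ replicate 1 and 1 without CD11b+ replicate 2, and the shares of all genes fell likewise, to 9.5%, 8.84% and 8.58%. Without either stromal library it was 7, with 24.1% and 24.0% of all genes. CD103- cells were higher than CD11b+ cells in Tgfb3 and Skil and lower in Tgfb1 (3 of 9; 17.5% of genes passed, 7.93% higher and 9.62% lower), and the count was 1 without CD103- replicate 1 (9.61% of all genes) or CD11b+ replicate 2 (7.37%). It was 2 without CD103- replicate 2 (11.1%) or CD11b+ replicate 1 (7.94%), and 5 without stromal replicate 1 or 2 (20.7% each) or with total counts (21.4%). Total counts moved the median of all genes by 0.39 and 0.38 log2 units in these last comparisons and the share of calls that were higher from 45.9% to 71.4% and from 45.2% to 71.6%.

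Other genes of the pathway were read from 5 lists. Their counts stand against 50.4% of all tested genes that differed among populations and 30.6% that passed between ductal and stromal macrophages (16.3% higher, 14.3% lower). Of 15 genes of latency and activation, 9 differed among populations, and 5 were higher and 0 lower in ductal than in stromal macrophages, so the share that passed in either direction was near that of all genes. The integrin chains Itgav and Itgb5, which pair to bind latent TGF-beta, averaged 187.8 ± 32.1 and 1168 ± 259 CPM (SD, n = 2) in ductal macrophages and at most 46.1 and 25.2 CPM elsewhere. Mmp14, a membrane protease that can release the ligand, averaged 378.8 ± 65.1 CPM in ductal and at most 28.7 CPM in other populations (4.20 ± 0.40 log2 units over stromal, adjusted p = 2.96e-05). Furin, the convertase that cuts the TGF-beta precursor, was highest in CD11b+ cells at 428.6 ± 18.6 CPM, against 219.6 ± 12.9 CPM in the ductal kind and 50.9 CPM in the stromal kind. CD11b+ cells exceeded CD103+ cells in Furin by 1.37 log2 units (adjusted p = 0.0146).

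Of 10 other ligands and ligand binders 8 were tested, 4 differed among populations, and 0 were higher and 4 lower (Bgn, Dcn, Fstl3 and Tgfb2) in ductal than in stromal macrophages, where 14.3% of all genes were lower. Fstl3 and Tgfb2 did not pass the test for any difference among populations (adjusted p = 0.152 and 0.0799). The count of 4 became 2 with replicate number in the model, where 27.8% of all genes passed in either direction. It also fell without either ductal library or CD11b+ replicate 2, as did the share of all genes. Decorin (Dcn), a matrix proteoglycan that binds TGF-beta, averaged 402 ± 15.4 CPM in stromal and 108 ± 58.2 CPM in ductal macrophages, a log2 fold change of -1.89 ± 0.34 (adjusted p = 0.00178). Dcn and Bgn are made by fibroblasts, whose summed markers were 801 to 1254 CPM in stromal and 357 to 1082 CPM in ductal libraries, and the part of such RNA was not tested. Bgn, at 6.65 CPM (ductal) and 21.8 CPM (stromal), did not pass without ductal replicate 1 (adjusted p = 0.148) or stromal replicate 1 (0.0649). Inhba, an activin subunit, was 11.8 ± 3.79 CPM in CD11b+ cells and at most 1.12 CPM elsewhere, and its test for any difference was lost without CD11b+ replicate 1 (adjusted p = 0.0944). Gdf15 averaged 133.9 ± 103.5 CPM in ductal macrophages, 88.2 ± 42.3 CPM in the stromal kind and 7.28 to 30.7 CPM in dendritic cells.

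Of 13 other receptors and coreceptors 12 were tested and 5 differed among populations, and 2 were higher and 1 lower in ductal than in stromal macrophages, no larger a share than among all genes (50.4% and 30.6%). Acvrl1, a type I receptor of the same family, averaged 132.9 CPM in ductal macrophages, 27.8 CPM in the stromal kind and 67.0 to 120.8 CPM in dendritic cells (2.25 ± 0.30 log2 units for ductal over stromal, adjusted p = 0.000277). The BMP receptor Bmpr1a was lower in ductal macrophages, at 5.28 against 26.7 CPM in stromal macrophages (-2.33 ± 0.44, adjusted p = 0.00272). Bambi, a decoy receptor without a kinase, was 7.33 and 8.46 CPM in ductal and stromal macrophages and 22.3 to 28.4 CPM in the dendritic populations. It was lower in ductal macrophages than in CD103+ cells by 1.94 log2 units (adjusted p = 0.00339) and lower in stromal macrophages than in CD103+ cells by 1.75 log2 units (adjusted p = 0.00332).

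Of 18 other SMADs and SMAD regulators 17 were tested and 9 differed among populations, and 6 were higher and 2 lower in ductal than in stromal macrophages, against 50.4% of all genes for the first count and 16.3% and 14.3% for the others. Without ductal replicate 1 fewer of these genes passed between ductal and stromal macrophages, and the share of all genes fell too. Pmepa1 and Ldlrad4 encode related membrane proteins that hold back SMAD2 and SMAD3 activation. Pmepa1 averaged 610 ± 150 CPM in ductal macrophages and 32.9 to 84.3 CPM elsewhere (3.49 ± 0.44 log2 units over stromal, adjusted p = 0.000188), and Ldlrad4 averaged 30.6 CPM in ductal and 3.84 to 10.3 CPM elsewhere (2.64 ± 0.60, adjusted p = 0.00728). Ski, the closest relative of Skil, was 370.1 ± 3.64 CPM in ductal macrophages and 73.4 to 88.9 CPM in the 4 other populations. Unlike Skil, its ductal excess over CD103+ cells (2.08 ± 0.27 log2 units, adjusted p = 0.000255) and over CD103- cells (2.33 ± 0.27, adjusted p = 0.000113) passed; whether the 2 genes differ in this was not tested. Tgif1, another SMAD corepressor, was 360.5 CPM in ductal, 232.6 CPM in CD11b+, 184.0 CPM in stromal and 89.4 and 67.8 CPM in CD103+ and CD103- cells. Its ductal over stromal difference (0.97 ± 0.22, adjusted p = 0.00688) was lost without ductal replicate 1 (adjusted p = 0.0515). The common partner Smad4 lay between 80.5 and 122 CPM in mean and did not pass the test for any difference (adjusted p = 0.288).

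Of 15 known target genes 10 differed among populations, and 3 were higher and 2 lower in ductal than in stromal macrophages. The share that passed between these macrophages was near the 30.6% of all genes. Both shares fell without ductal replicate 1. Spsb1, which encodes an adaptor that lowers type II receptor protein, was 265 ± 40.8 CPM in ductal macrophages, 60.3 CPM in CD103+ cells and 10.1 to 20.7 CPM elsewhere (3.99 ± 0.42 over stromal, adjusted p = 6.21e-05). Fibronectin (Fn1) had its high value in CD11b+ cells instead, at 2156 ± 211 CPM against 21.1 to 49.5 CPM elsewhere, and the log2 fold change of ductal macrophages over CD11b+ cells was -5.94 ± 0.65 (adjusted p = 9.36e-05). Bhlhe40 was 430.6 CPM in CD11b+ cells, 349.4 CPM in CD103+ cells, 260.6 ± 98.6 CPM in ductal macrophages and 64.5 ± 52.8 CPM in the stromal kind, and its ductal over stromal difference (2.01 ± 0.51, adjusted p = 0.012) was lost without ductal replicate 1 (0.103). Itgae, which encodes CD103 and is induced by TGF-beta in lymphocytes, averaged 164.9 ± 9.36 CPM in CD103+ cells and at most 6.59 CPM elsewhere. CD103 names the sorted CD103+ and CD103- kinds, so the difference between them checks the labels and is no finding.

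**Figure D5:**
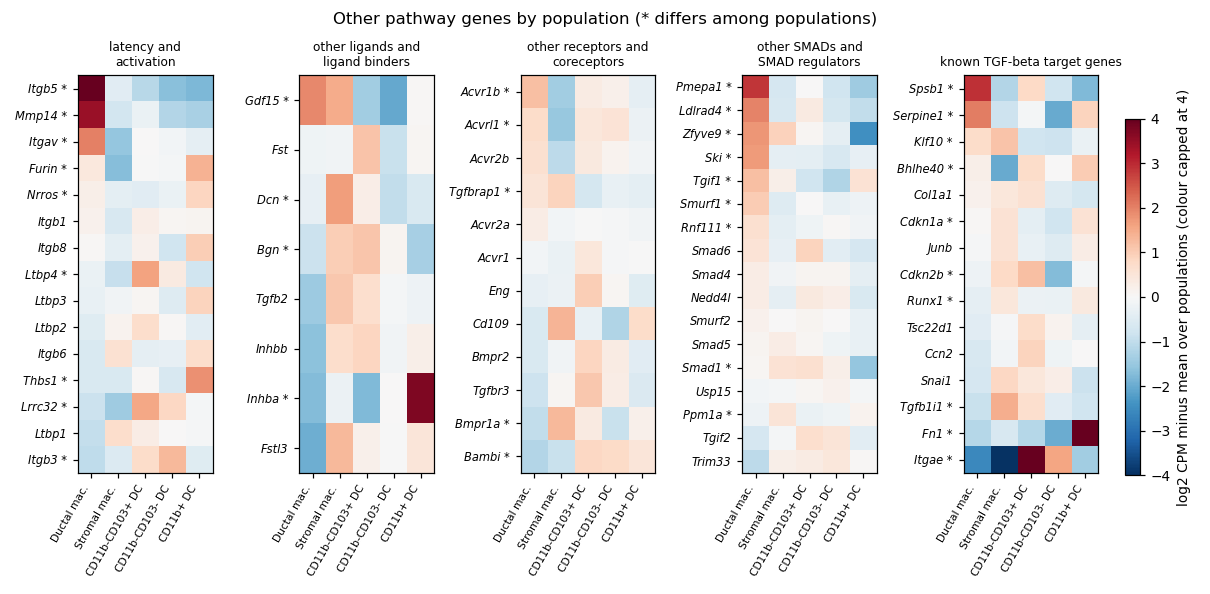
Mean log2 CPM of each tested gene of the 5 lists in each population, less its mean over the populations, with an asterisk where the test for any difference passed and colours capped at 4. Itgb5, Mmp14, Pmepa1 and Spsb1 are deepest in the ductal column, and Inhba and Fn1 in the column of CD11b+ dendritic cells.

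For each member up to 3 of the genes most like it by Pearson's r of log2 CPM over the 10 libraries were taken from 9976 genes. The 10 points are 5 populations of 2 and share their scaling, so r is a description. Tgfb1 was closest to Cd14, the lipopolysaccharide coreceptor (r = 0.982), Slc35b2 (0.974) and Slc15a3 (0.974). Tgfb3 was closest to the transcription factor Nfatc1 (0.986), Acsf2 (0.970) and Cttnbp2nl (0.969). Tgfbr1 was closest to the transcription factor gene Plagl2 (0.990), Plekhm2 (0.985) and the calpain Capn3 (0.983), which averaged 96.6 CPM in ductal macrophages and at most 1.53 CPM elsewhere. Tgfbr2 was closest to the scavenger receptor Stab1 (0.991), the lectin Siglech (0.984) and the transcobalamin gene Tcn2 (0.978). Stab1 and Siglech had the same order of population means as Tgfbr2, whereas Tcn2 was at 31.9 CPM in CD103- and 33.1 CPM in CD11b+ cells, the reverse of the last step. Smad3 was closest to Rbak (0.957), another member, Tgfb3 (0.951), and Ccdc134 (0.947), and Smad7 to Toe1 (0.959), Procr (0.951) and Ggta1 (0.951). Skil was closest to Gnptab (0.969), Leng8 (0.969) and Ocstamp (0.967), a gene of osteoclast fusion. Genes like Tgfbi included the lysosomal membrane gene Glmp (0.983) and Lgals3bp (0.978). Smad2 had the loosest match, to Gorab (0.947), Thoc5 (0.899) and Napg (0.892), and its r with each of the 8 other members was negative, down to -0.76 with Tgfb3. Among members the closest pairs were Tgfb3 with Smad3, Smad3 with Smad7 (0.916) and Tgfb3 with Tgfbr1 (0.909).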

How the data were processed

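RNA from freshly sorted cells was made into cDNA libraries and read in paired ends on an Illumina NextSeq instrument, per the labels' protocols. The deposited table holds whole-number counts per gene made by the authors with featureCounts on mm10, per the submitters' processing notes; no source used here gives a strand setting or version. The 10 library tables equalled the series table. Symbols came from RefSeq (25275 of 27179 gene IDs matched), and counts of IDs without one took 0.388% to 2.32% of a library. Genes passing edgeR's filterByExpr (minimum count 10, minimum total 15) were tested in R 4.3.3 with edgeR 4.0.16: TMM scaling (factors 0.779 to 1.36), 1 mean per population over all 10 libraries, 5 residual degrees of freedom, quasi-likelihood tests, Benjamini-Hochberg adjustment over all 15681 genes, threshold 0.05. The biological coefficient of variation was 0.333. The SE given with a log2 fold change is its absolute value divided by the square root of the test's F value. The test also draws on the spread of all genes, so its p-values rest on more than the 5 residual degrees of freedom. RPKM used the table's gene lengths. Alternatives were DESeq2 1.42.0, its size factors (RLE), total counts, no filter, replicate number as a block and leaving out each library. The 9 members, the pathway lists and the markers were chosen with earlier results of these data known. From each pathway list up to 4 genes with the largest range of log2 mean CPM (prior count 2) were named, among those that differed with a highest mean of at least 10 CPM; Tgfb2, Fstl3 and Smad4 were named after their values were seen. Scripts were tested on simulated data. Sequences of Smad2 and Smad7 were not used here. One gene among those most like Tgfbi is not reported here.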

Additional observations from a re-analysis of the deposited data

How the results depend on the processing

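Of the 39 differences between 2 populations that passed for a member, 26 passed under all 15 alternatives and 0 changed sign. With all libraries kept, 6 to 8 of 9 members differed among the 5 populations, where 42.2% to 58% of all genes did. Leaving out a library changed the count of members in every pair of populations except CD103+ against CD103- cells. The change was more than 1.5-fold for ductal against stromal macrophages and for stromal macrophages against CD103+ and CD103- cells. It also was for CD103+ and CD103- cells against CD11b+ cells. The share of all genes that passed changed in each of these comparisons too. Total counts gave 4 members for stromal macrophages against CD103+ cells (36.2% of all genes) and 5 for CD103- against CD11b+ cells (21.4%). A lone library left in a population is assumed to vary like the others, and the cause of these shifts was not tested.

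With total counts, differences that had not passed changed sign: for Tgfb1, stromal against CD103- cells to -0.38; for Smad2, ductal against CD103+ cells to -0.55, stromal against CD103+ cells to -0.012, stromal against CD103- cells to -0.35 and CD103- against CD11b+ cells to 0.13; for Skil, ductal against CD103+ cells to -0.045; for Tgfbi, CD103- against CD11b+ cells to 0.079. Leaving out a library did so too, all among differences that had not passed. The ranges were -0.30 to 0.080 (stromal against CD103+) and -0.075 to 0.32 (stromal against CD103-) for Tgfb1, and -0.97 to 0.16 (stromal against CD103-) for Tgfbr1. For Smad2 they were -0.32 to 0.39 (ductal against CD103+), -0.66 to 0.049 (ductal against CD103-), -0.14 to 0.36 (stromal against CD103-) and -0.39 to 0.11 (stromal against CD11b+). For Smad3 they were -0.30 to 0.87 (stromal against CD11b+) and -0.24 to 0.075 (CD103+ against CD103-). Smad7 ran from -1.85 to 0.63 and Skil from -0.81 to 0.15, both for stromal against CD11b+ cells, and Tgfbi from -0.59 to 0.073 for CD103+ against CD103- cells. For ductal against stromal macrophages Inhba ran from -7.20 to 0.84, Gdf15 from -0.54 to 1.23, Bambi from -0.75 to 0.19 and Fn1 from -1.16 to 0.15.

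Among the gene lists, without the filter 7 in place of 4 other ligands and binders differed among populations, where 42.2% in place of 50.4% of all genes did. Leaving out a library changed the counts of such genes, of SMAD regulators and of target genes for ductal against stromal macrophages. The share of all genes that passed there changed too.

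Replicate numbers were checked for pairing: the deviations of same-numbered libraries correlated at -0.18 to 0.18 over the 10 pairs of populations. The 4 positive pairs (0.10 to 0.18) lay among ductal, stromal and CD11b+ libraries and between CD103+ and CD103- cells, and the 6 pairs across these sets were negative. Since not every pair was positive, the numbers were not taken to pair the libraries. These signs cannot show that same-numbered libraries are independent, so results with a replicate block are given too. With the replicate block, 7 members differed among populations, where 44.5% of all genes did. In ductal over stromal macrophages 7 of 9 were higher (Smad7 lost), and 27.8% of all genes passed. Tgfbr1 passed for CD103- over CD11b+ cells (adjusted p = 0.0487) while Skil was lost there (0.051). Between stromal macrophages and CD11b+ cells 2 members differed (Tgfb3 lost), with 23.1% of all genes. Between CD103+ and CD103- cells 3 genes in all in place of 5 differed. For ductal against stromal macrophages 2 in place of 4 other ligands and binders passed.

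There were 2 libraries per population and 5 residual degrees of freedom. The shallowest library held 5636092 counts, and Smad7 had 38 counts in stromal replicate 1.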
